A study of Mus musculus with 1479 samples.

Results

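Cadherins are cell-surface glycoproteins that hold neighbouring cells together. Their extracellular repeats bind cadherins of the next cell in a calcium-dependent manner, and the cytoplasmic tail of a classical cadherin is anchored to actin through catenins. Type I members such as E-cadherin (Cdh1) and N-cadherin (Cdh2) are textbook markers of epithelial and mesenchymal tissue, and VE-cadherin (Cdh5) is the junctional cadherin of endothelium.

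Described here are 7 cadherin genes in stromal cells of the mouse urinary bladder, Cdh1, Cdh2, Cdh3, Cdh5, Cdh6, Cdh11 and Cdh13, out of 46517 gene rows in the deposited table. The 7 genes were selected on their levels across the clusters in these same counts. Cluster differences are therefore given as descriptions without a test.

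The samples were single cells from adult male mice of 10 to 20 weeks, sorted 1 to a well on 6 plates and sequenced with Smart-seq2, a full-length cDNA protocol without molecular identifiers. The line PdgfrbGFP gave 810 cells (54.8%), C57BL6 mice, which carry no reporter and were stained with antibodies, gave 190 (12.8%), and Cspg4dsRED, PdgfraGFP and Acta2GFP gave 13.7%, 9.94% and 8.72% of the cells. In the reporter lines the promoter of the named gene drives a fluorescent protein, so each line offers those cells in which that promoter is active, and cells positive for the endothelial protein CD31 were kept out by the sort. Before deposit the authors also left out cells that lacked both Pdgfra and Pdgfrb, among which they found endothelial and epithelial cells recognised by Cdh5 and Cdh1, so that low levels of these 2 members describe the cells kept and not the bladder. The labels name no animal. The line is used below as the unit of replication, which is an assumption, and the SD over lines also holds differences of sort and plate.

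The labels put each cell in 1 of 11 clusters. Cluster 10, with 12 cells of Acta2GFP, 3 of C57BL6, 65 of Cspg4dsRED and 45 of PdgfrbGFP, had a mean summed level of 11642 for 9 mural cell markers (Acta2, Myh11, Rgs5 and others), against 79.4 to 628 in the other clusters. The 6 fibroblast markers (Pdgfra, Col1a1 and others) summed to 855 in cluster 10 and to between 7786 and 17370 elsewhere. Cluster 5 (76 cells) led for the 4 sub-epithelial fibroblast genes Tnc, Bmp5, Bmp7 and Cxcl14, at 2068 against at most 161.2 in any other cluster. Clusters 1 to 9 and 11 (1354 cells) are called fibroblast clusters here. Cluster 4 (23 cells) had the lowest fibroblast sum and was not named more closely.

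A level is a gene's reads in a cell scaled to 500000 endogenous reads, and the mean of this value was taken for every line. Cells held 48455 to 1433402 endogenous reads with a median of 212483. A line enters a cluster's mean when it has at least 3 cells there. A gene is called higher or lower when its level, with 1 added, differed at least 2-fold in the same direction in every line that could be compared. The percentage of all genes that met the same rule is given with the first count for a comparison.

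Cdh11 was high in the fibroblast clusters and low in the mural cells. Cdh11 (ENSMUSG00000031673, GRCm38 chr8:102632095-102785642, minus strand), or OB-cadherin, is a type II cadherin known from mesenchymal cells and osteoblasts. It was read in 1035 of 1354 fibroblast-cluster cells and at 10 or more reads in 641 of them. In cluster 10 its level was 1.31 in Acta2GFP, 0.873 in C57BL6, 2.21 in Cspg4dsRED and 4.81 in PdgfrbGFP. The same lines had 65.7, 103.4, 62.7 and 95.2 in the fibroblast clusters, and no value of cluster 10 came near them. The difference averaged -4.75 ± 0.77 on the log2(level + 1) scale (SD, n = 4 lines).

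Cdh6 had the opposite distribution. Cdh6 (ENSMUSG00000039385, GRCm38 chr15:13028701-13173675, minus strand), or K-cadherin, is a type II cadherin best known from the embryonic kidney. In cluster 10 its level was 47.4 in Acta2GFP, 35.1 in C57BL6, 23.03 in Cspg4dsRED and 51.2 in PdgfrbGFP. In the fibroblast clusters the same 4 lines had 0.0202, 0, 0 and 0.105. Every line was therefore far higher in cluster 10, and the log2(level + 1) difference averaged 5.22 ± 0.46 (SD, n = 4 lines), a size set in part by the added 1 because the fibroblast levels lay at or near 0.

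These were the only members called between cluster 10 and the fibroblast clusters, 1 higher and 1 lower of 7. Over all 23449 genes with at least 10 reads in the cells compared, 1.68% were called higher and 5.63% lower, and the median difference of all these genes was -0.13 on the same scale. Both calls were also made with each line left out in turn and with 4-fold in place of 2-fold.

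**Figure D1:**
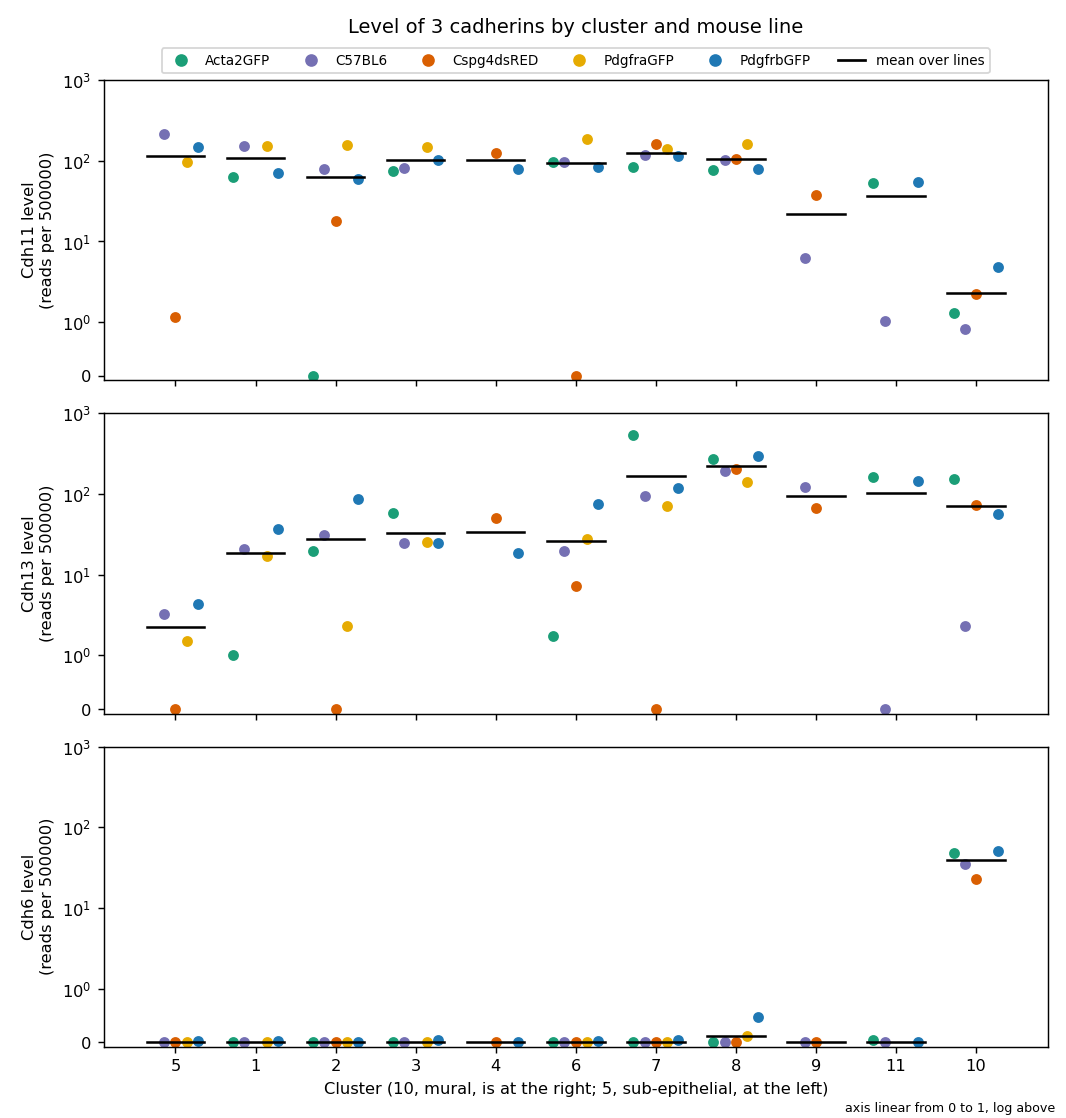
Levels of Cdh11, Cdh13 and Cdh6 (reads per 500000 endogenous reads; the axis is linear up to 1 and logarithmic above) in each cluster. Each point is the mean over the cells of 1 mouse line with at least 3 cells in the cluster and the black bar is the mean over lines. Cluster 10 holds the lowest mean for Cdh11 at 2.30 and the highest for Cdh6 at 39.2, and cluster 5 the lowest for Cdh13 at 2.26.

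Within the fibroblasts, Cdh11 varied little between most clusters compared with its spread over lines. Cluster 7 had the highest mean, 124.1 ± 29.4 (SD, n = 5 lines), followed by cluster 5 with 115.1 ± 89.5 (n = 4), cluster 1 with 109.3 ± 49.03 (n = 4) and cluster 8 with 104.6 ± 33.4 (n = 5). Clusters 3, 4, 6 and 2 followed with 101.7, 100.9, 92.7 and 62.9. The ranges over lines overlapped between each of these clusters and the next in order.

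The lower end of that order was formed by cluster 11 with 36.3 ± 30.6 (n = 3 lines) and cluster 9 with 22.2 ± 22.5 (n = 2). Cdh11 was called lower in cluster 9 against the other fibroblast clusters without 5, where 11.7% of 18216 genes were called in either direction. Only 2 lines could be compared there, C57BL6 with 3 cells at a level of 6.27 and Cspg4dsRED with 85 cells at 38.05 against 108.4 in the rest of its fibroblasts. Cluster 9 is almost wholly a Cspg4dsRED cluster (85 of 91 cells).

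Cluster 5 was split by line for Cdh11. Its level was 213.6 in C57BL6, 97.9 in PdgfraGFP and 147.6 in PdgfrbGFP but 1.16 in the 3 cells of Cspg4dsRED. The corresponding levels in the other fibroblast clusters were 93.7, 162.7, 92.7 and 64.1, so that 2 lines were higher and 2 lower, and Cdh11 was not called.

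Cdh13 was low in the sub-epithelial fibroblasts of cluster 5. Cdh13 (ENSMUSG00000031841, GRCm38 chr8:118283733-119324921, plus strand), or T-cadherin, is an atypical member without a cytoplasmic tail that is held in the membrane by a lipid anchor and binds adiponectin. Its level in cluster 5 was 4.28 in PdgfrbGFP, 3.25 in C57BL6, 1.497 in PdgfraGFP and 0 in Cspg4dsRED. In the other fibroblast clusters the same lines had 100.5, 57.98, 49.6 and 70.4, with no overlap. The difference averaged -4.64 ± 1.04 on the log2(level + 1) scale (SD, n = 4 lines).

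Cdh13 was the only member called in cluster 5, 1 lower and 0 higher of 7, where 2.67% of 23124 genes were called lower and 0.579% higher. Of the 76 cells, 39 had at least 1 Cdh13 read, but only 4 had 10 or more, and the highest level in a cell was 39.6. With every cell reduced to 50000 reads, 15 of 76 cells kept a Cdh13 read (19.7%, exact 95% interval 11.5 to 30.5) against 550 of 1272 cells in the other fibroblast clusters (43.2%, 40.5 to 46.01). At 10 or more reads no cell of cluster 5 remained after thinning, a limit of 3.95% at 3 counts, against 20.3% of the 1272 others. Intervals and limits cover counting error only, since reads without molecular identifiers are not independent molecules.

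Cdh13 also differed among the other fibroblasts. Cluster 8 had the highest mean of all clusters, 222.2 ± 63.5 (SD, n = 5 lines). The level was 296.3 in PdgfrbGFP, 275.7 in Acta2GFP, 203.6 in Cspg4dsRED, 194.95 in C57BL6 and 140.5 in PdgfraGFP. The remaining fibroblasts of these lines, in the same order and without cluster 5, had 61.95, 133.4, 54.9, 41.97 and 33.3. Each line was thus higher in cluster 8, where 0.379% of 22928 genes were called.

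Clusters 1 and 3 were called lower. Cdh13 averaged 18.8 ± 14.6 in cluster 1 and 33.1 ± 16.3 in cluster 3 (SD, n = 4 lines each) against 93.98 ± 48.6 and 113.99 ± 59.8 in the rest of the fibroblasts without cluster 5. The call stands beside 1.02% of 22660 genes called in cluster 1 and 0.384% in cluster 3. When reads were summed over the cells of a line in place of averaging levels, these 3 calls of Cdh13 were lost, as 1 line then differed by less than 2-fold: the smallest difference was 0.63 for cluster 8 (Acta2GFP), -0.99 for cluster 1 (PdgfraGFP) and -0.70 for cluster 3 (PdgfraGFP) on the log2 scale, with the direction kept in every line.

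In clusters 2 and 6 Cdh13 was lower in all 5 lines, by -2.89 ± 2.44 and -2.43 ± 2.14 on the log2(level + 1) scale, at means of 28.1 and 26.2 that lie below that of cluster 3. It was not called, since 3 lines of cluster 2 and 4 of cluster 6 reached 2-fold. Cluster 7 averaged 166.03 ± 216.6 (n = 5 lines), with 545 in the 9 cells of Acta2GFP and 0 in the 11 cells of Cspg4dsRED, and Cdh13 was not called there (0.711% of genes were). Cluster 11 had 103.5 ± 89.97 (n = 3) and cluster 9 had 94.7 ± 37.8 (n = 2). Cluster 4 had 34.3. No member was called in clusters 4, 2 or 6, where 16.4%, 3.39% and 0.471% of genes met the rule.

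Mural cells also expressed Cdh13. In cluster 10 the level was 152.7 in Acta2GFP, 73.3 in Cspg4dsRED and 56.9 in PdgfrbGFP, next to 146.8, 68.8 and 95.998 in the fibroblasts of the same lines. The 3 C57BL6 cells of cluster 10 stood at 2.34 against 53.6. Over the 4 lines the difference was -1.16 ± 1.96 on the log2 scale, smaller than its spread, and 66 cells (52.8%) had a Cdh13 read.

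Compared per kilobase of exon, the scale that allows levels of different genes to be set side by side, Cdh11 had 10.8 ± 4.10 and Cdh13 had 7.26 ± 3.71 in the fibroblast clusters (SD, n = 5 lines). Cdh5 lay at 0.272 ± 0.499, and at 0.0554 ± 0.0347 without the 1 Cspg4dsRED cell described below. The remaining members lay at 0.199 (Cdh2), 0.0210 (Cdh3), 0.0129 (Cdh1) and 0.00315 (Cdh6) per kilobase. In cluster 10 the level per kilobase was 6.35 ± 5.53 for Cdh13 and 4.34 ± 1.42 for Cdh6 (n = 4 lines), values that do not differ beyond their spread. Cdh3 had 5.40 ± 10.1 and Cdh2 1.77 ± 2.52 there, both resting mainly on 1 cell of C57BL6, Cdh1 had 0.989 ± 1.90, Cdh11 0.258 ± 0.198 and Cdh5 0.0523 ± 0.0607.

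Fibroblasts differed in whether Cdh11, Cdh13 or both were read. The first counts pool clusters that differ in Cdh13 level, so they do not describe the cells of a single cluster. A cell without a read may still hold the transcript. In the fibroblast clusters other than 5, 690 of 1278 cells had reads of both Cdh11 and Cdh13 and 280 of Cdh11 without Cdh13. At 10 or more reads, the cells with both made up 25.6% of the 594 cells with Cdh11 and 43.7% of the 348 with Cdh13. Among all 1278 cells 27.2% had as many Cdh13 reads and 46.5% as many Cdh11 reads. These shares lie close together, and no separation of Cdh11 and Cdh13 is read from them. In cluster 8, 59.9% of cells had 10 or more Cdh13 reads and 36.8% as many Cdh11 reads, whereas in cluster 3 the shares were 15.4% and 54.2%, unthinned.

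Cdh6 marked only some of the mural cells. In cluster 10, 38 cells (30.4%, exact 95% interval 22.5 to 39.3) had a Cdh6 read and 22 had at least 10, with a highest count of 200, and the 5 cells with most reads held 46.6% of all 1490. After thinning to 50000 reads, 31 cells kept a read (24.8%, interval 17.5 to 33.3), against 3 of 1348 fibroblast-cluster cells (0.223%, 0.0459 to 0.649). All 7 combinations of plate and line with at least 3 cluster 10 cells held Cdh6-positive cells, from 2 of 16 for Cspg4dsRED on plate bladder_689s to 12 of 20 for PdgfrbGFP on plate bladder_881s. On the latter plate 7.85% of the fibroblast-cluster cells also had a Cdh6 read, as did 12 of 47 (25.5%) that shared rows or columns with 5 or more cluster 10 cells. At 10 or more reads the counts ran from 3 of 49 for Cspg4dsRED on plate bladder_352s to 8 of 20 on plate bladder_881s, where 1 fibroblast-cluster cell had as many.

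Cdh2 was read in few mural cells. Cdh2 (ENSMUSG00000024304, GRCm38 chr18:16588877-16809246, minus strand) was read in 8 cells of cluster 10 and at 10 or more reads in 4 of them, which were 1 of C57BL6 with 51 reads, 1 of PdgfrbGFP with 53 and 2 of Cspg4dsRED, the lower with 33. None of the 8 was among the 38 cells with a Cdh6 read, though with so few cells and 30.4% of the cluster holding Cdh6 a small overlap is what unrelated genes would give, and no separation is read from it. All 4 cells with 10 or more Cdh2 reads also had 10 or more reads of Rgs5, a regulator of G-protein signalling used as a pericyte marker, and of Esam, a junctional adhesion molecule. Among the 22 cells with 10 or more Cdh6 reads, 4 had as many Rgs5 reads and all 22 had as many reads of Myh11, the smooth muscle myosin heavy chain. In the whole of cluster 10, 44 cells had 10 or more Rgs5 reads, 73 had as many of Esam and all but 6 cells had as many of Myh11. Of the 4 cells with 10 or more Cdh2 reads, 3 also had as many of Myh11. Kcnj8, also on the mural list, had 10 or more reads in 5 of those 22 Cdh6 cells (22.7%) and in 19 of cluster 10. At 1 or more reads, Rgs5 was found in 25 of the 38 cells with Cdh6 (65.8%) and in 69 cells of the cluster. Kcnj8 was found in 14 of the 38 (36.8%) and in 33 cells of the cluster. The rates were not tested against each other, and across the thinned cells of cluster 10, which share plates, Spearman's rho of Cdh6 was -0.10 with Rgs5 and 0.10 with Myh11.

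**Figure D2:**
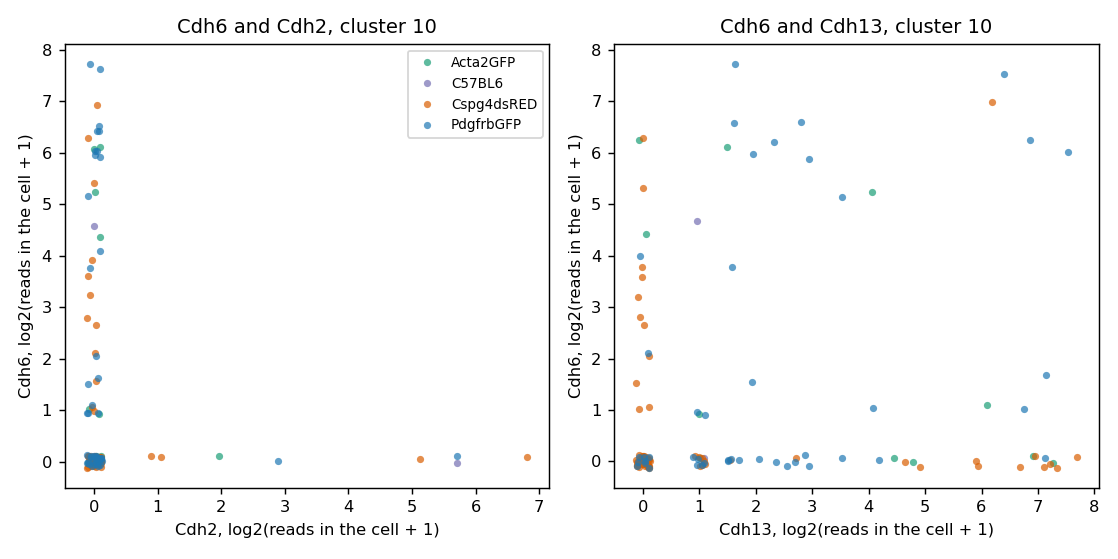
Reads of Cdh6 against Cdh2 (left) and Cdh13 (right) in each cell of cluster 10, on a log2(reads + 1) scale with a small random offset so that cells at the same value can be seen; colours give the mouse line. The 8 cells with Cdh2 lie along the bottom edge of the left panel, none among the 38 cells with Cdh6, while in the right panel 23 cells hold reads of both Cdh6 and Cdh13.

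Outside cluster 10, Cdh6 was all but absent. Of 1354 fibroblast-cluster cells 1333 had no read, 15 had 1, 4 had 2 and 1 had 3. The single other cell, of cluster 8 and line PdgfrbGFP, had 45 reads. Without that cell the same 2 members were called in cluster 10.

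Where on the plate a cell lay went together with these low counts. All 20 fibroblast-cluster cells with 1 to 9 Cdh6 reads sat in the same row or column of a plate as a cell with 10 or more (20 of 399, 5.01%, exact 95% interval 3.09 to 7.64). None of the 954 cells in other rows and columns of those plates had a read, which allows a share of up to 0.314% at 3 counts. Plates contributed unequally, since 18 of the 20 cells lay on bladder_881s, the plate with the deepest cells, and 1 each on bladder_515s and bladder_689s. Within bladder_881s these 18 were 12.3% of the cells in such rows and columns (exact 95% interval 7.47 to 18.8), against 0 of 95 elsewhere, a limit of 3.16% at 3 counts, at median depths of 399118 and 367182 reads per cell.

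For Cdh2 outside cluster 10 the numbers were 51 of 630 cells (8.10%) in such rows and columns, 2 of 571 (0.350%) in the others, and none on plates without such a cell, a limit of 2.34% at 3 counts. Depth moved with this pattern, with medians of 276902, 199841 and 155912 reads per cell. Plate by plate, the low Cdh2 counts were in 18 cells (9.73%) against 0 on bladder_074s, in 14 (9.72%) against 0 on bladder_443s and in 15 (10.6%) against 0 on bladder_881s, and on the shallower bladder_515s and bladder_689s in 2 cells (1.96% and 3.51%) against 1 on each. The position of wells and the split by plate were examined after the low counts had been seen, and the part of position, plate and depth in other counts was not tested.

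For Cdh3 and Cdh5 too few cells lay beside a high cell to read an arrangement either way. Cdh3 reads were found in 5 of 59 cells (8.47%, interval 2.81 to 18.7) in rows and columns of the 3 cells with 10 or more, in 21 of 535 (3.93%, 2.45 to 5.94) elsewhere on those plates and in 44 of 760 (5.79%) on plates without such a cell. For Cdh5 1 to 9 reads were found in 0 of 11 cells beside the single high cell (interval 0 to 28.5). Elsewhere on its plate they were found in 7 cells (6.03%), and on the other plates in 9.46% of 1226 cells. The last share pools plates that differed. In the fibroblast clusters without 5, all Cdh5 reads of PdgfrbGFP lay on bladder_881s, with 0 on bladder_074s and bladder_515s. Acta2GFP, on bladder_515s, also had 0. C57BL6 on bladder_443s and PdgfraGFP and Cspg4dsRED on bladder_689s held reads.

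**Figure D3:**
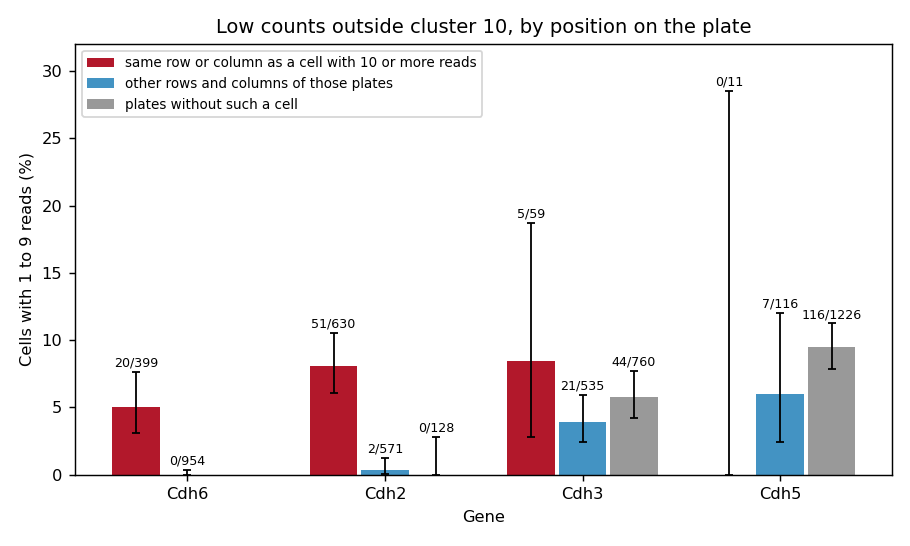
Percentage of cells outside cluster 10 with 1 to 9 reads of Cdh6, Cdh2, Cdh3 or Cdh5, by position relative to cells with 10 or more reads of the same gene; numbers give cells with reads over cells and bars the exact 95% interval. Low Cdh6 counts occur in 20 of 399 cells that share a row or column and in 0 of 954 others, and low Cdh2 counts in 51 of 630 and 2 of 571.

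The few Cdh11 reads of mural cells followed the plate as well. Cdh11 was read in 20 of 20 cluster 10 cells on plate bladder_881s and in 4 of 4 on plate bladder_074s, with at most 9 and 5 reads in a cell. On plates bladder_352s, bladder_443s, bladder_515s and bladder_689s it was read in 3 of 49, 1 of 3, 5 of 33 and 1 of 16. Pdgfra, the fibroblast receptor, was read in all 20 and all 4 cells of the first 2 plates, and on the other 4, in the same order, in 9 of 49, 3 of 3, 20 of 33 and 3 of 16. The cluster 10 cells of plate bladder_881s were also the deepest, with a median of 301744 reads against 109118 on bladder_352s. Without the first 2 plates Cdh6 and Cdh11 were called as before, and the part of plate and depth in these low counts was not tested. Only 2 mural cells (1.60%) had 10 or more Cdh11 reads, with 42 the highest count.

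Among fibroblasts, Cdh2 was found at 10 or more reads in 25 of 1354 cells. They were spread over clusters 5 (7 cells), 3 (7), 6 (5), 8 (4) and 1 (2), and 15 of the 25 came from PdgfrbGFP, the line with most cells. In cluster 5 that was 7 of 76 cells (9.21%, unthinned) against 18 of 1278 in the other fibroblast clusters (1.41%). After thinning the shares were 2.63% (2 of 76) and 0.472% (6 of 1272), and at 1 or more reads 13.2% (10 of 76) and 2.20% (28 of 1272). These shares pool cells of several lines and plates and describe the cells at hand, and low Cdh2 counts moved with plate position as given above. The level in cluster 5 was 16.9 in C57BL6, 8.92 in PdgfraGFP, 2.85 in PdgfrbGFP and 0 in Cspg4dsRED, against 2.56, 0.0153, 1.44 and 0 in the other fibroblasts. Cdh2 was not called there because 2 of the 4 lines differed by less than 2-fold. In cluster 11 it was called lower (0.0938 ± 0.163 against 2.12 ± 0.597, n = 3 lines, 4.34% of genes called), at levels that amount on average to about 1 read per cell and below, and the call was lost with 5 added in place of 1. Few cells carried these levels. In Acta2GFP, which gave 43 cells of cluster 11, all 27 Cdh2 reads of the fibroblasts lay in 3 cells, 2 of them with 10 or more.

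Cdh3, P-cadherin of basal epithelia (ENSMUSG00000061048, GRCm38 chr8:106510891-106557297, plus strand), was carried by 3 cells. Their levels were 269.7 (C57BL6), 160.3 (Cspg4dsRED, 43 reads) and 106.6 (PdgfrbGFP, 12 reads), and all 3 were mural cells of cluster 10 with 555 or more reads of Acta2, the smooth muscle actin gene. The 11 urothelial markers (keratins, uroplakins, Epcam and Trp63) summed to 4, 3 and 0 reads in them. The 6 fibroblast markers summed to levels of 3283, 152.8 and 5533, beside a median of 446 and a highest value of 5650 over the cells of cluster 10, so the C57BL6 and PdgfrbGFP cells held mural and fibroblast transcripts together. The C57BL6 and PdgfrbGFP cells also held 51 and 6 reads of Cdh2. Of the 74 cells with any Cdh3 read, 62 had exactly 1. The level in cluster 10 was 89.9 in C57BL6, where 1 of 3 cells carried all of it, 2.47 in Cspg4dsRED, 2.41 in PdgfrbGFP and 0 in Acta2GFP, and with Acta2GFP left out Cdh3 too was called higher there (3 members in place of 2).

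Cdh5 (ENSMUSG00000031871, GRCm38 chr8:104101625-104144511, plus strand) had 55.4% of its 417 reads in a single cell. This was a Cspg4dsRED cell of cluster 4, at a level of 629. Of the 10 endothelial markers it had 3 reads of Pecam1, 2 of Cldn5, 2 of Esam and none of Kdr, Tek, Tie1, Flt1, Emcn, Egfl7 and Vwf, whereas the 6 fibroblast markers summed to 1718 reads and 3 of 11 urothelial markers, mainly the keratin gene Krt19, were also read. No other cell had more than 5 Cdh5 reads. In mural cells 12 had a read, unthinned (9.60%, interval 5.06 to 16.2), next to 9.16% of the 1354 cells in the fibroblast clusters (7.67 to 10.8). After thinning the shares were 2.40% and 1.63%. Both shares pool plates that differed in Cdh5 reads. In mural cells PdgfrbGFP had 10 reads on bladder_881s and 0 on bladder_074s and bladder_515s, and Cspg4dsRED 6 on bladder_689s and 0 on bladder_352s. The fibroblast reads were also uneven by plate, as given above. The 10 endothelial markers summed to a mean level of 406.7 in cluster 10, of which Esam made up 343.8, and to between 34.4 and 104.6 in the other clusters.

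Cdh1 (ENSMUSG00000000303, GRCm38 chr8:106603351-106670246, plus strand) had 35 reads in the whole series. They fell in 16 cells, 12 of which had 1 read, and no fibroblast-cluster cell among those kept reached 10. The highest count, 12, was in a C57BL6 cell of cluster 10 with 965 Acta2 reads, 24 reads of Cdh6 and 0 reads over all 11 urothelial markers, but 42 reads of Upk3b, a uroplakin gene also used as a mesothelial marker. The next was 5 reads in a Cspg4dsRED cell of cluster 4.

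**Figure D4:**
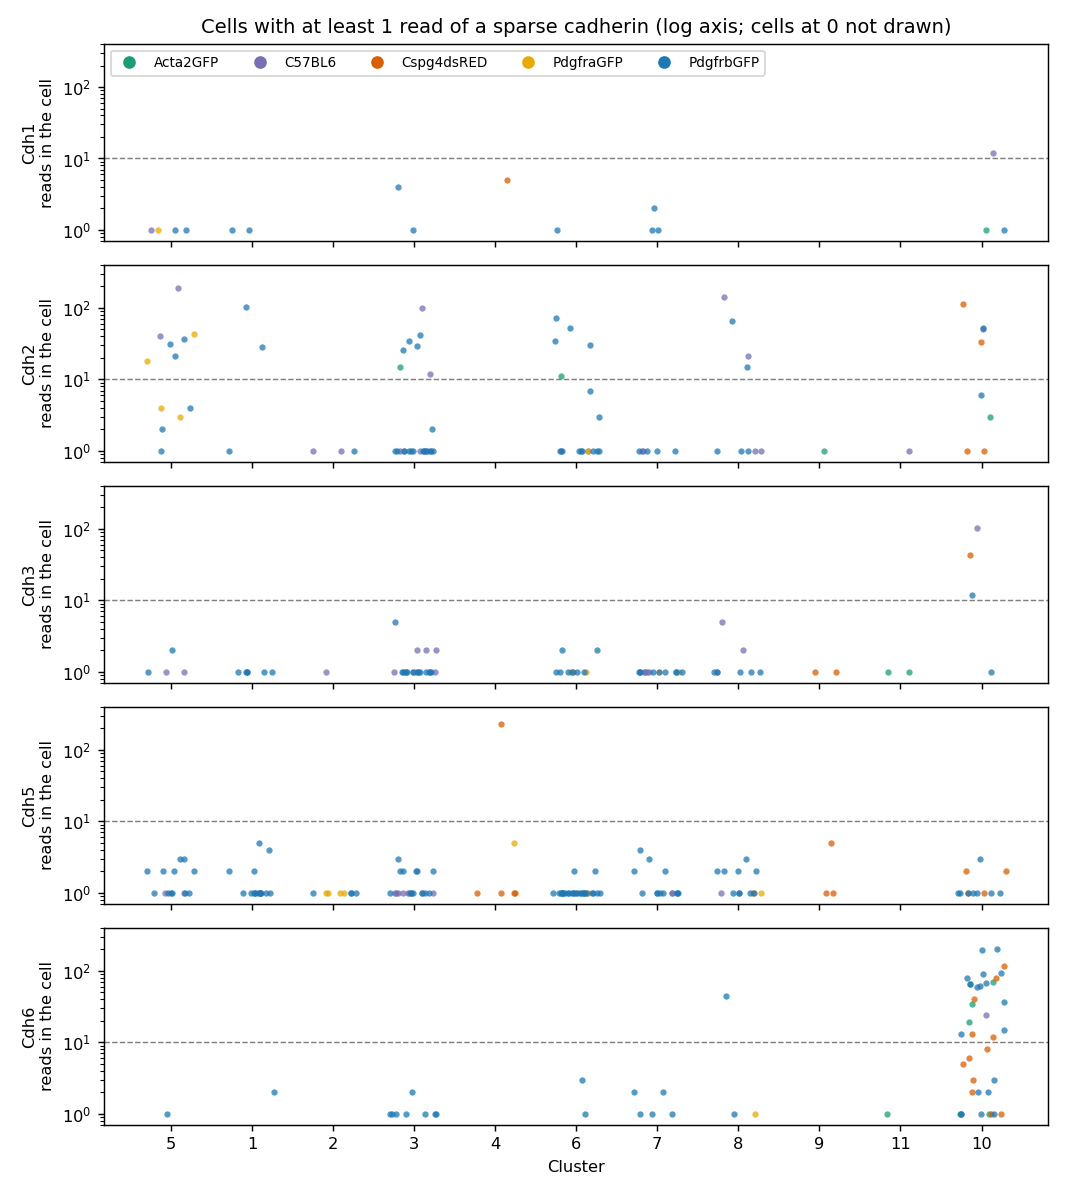
Number of reads in each cell with at least 1 read of Cdh1, Cdh2, Cdh3, Cdh5 or Cdh6 (log axis), by cluster and coloured by mouse line, with a dashed line at 10 reads. Cdh6 exceeds 10 reads in 22 cells of cluster 10 and in 1 other cell, Cdh2 in 29 cells of 6 clusters, Cdh3 in 3, Cdh5 in 1 and Cdh1 in 1.

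Members were compared between lines within one cell class, since the line was not used to form the clusters. Lines were sorted differently, and in cluster 10 no plate in the test held both lines. Line, sort and plate therefore cannot be told apart there. Counts were summed per plate and line and compared with edgeR's quasi-likelihood test over all genes. Within cluster 10, 2 sums of Cspg4dsRED were set against 3 of PdgfrbGFP. The CPM of Cdh6 (edgeR's counts scaled to a common library size) was 47.7 and 21.5 in Cspg4dsRED and 12.8, 112.3 and 113.9 in PdgfrbGFP, so the groups overlapped. The log2 fold change was -1.22 ± 1.41 (SE, adjusted p = 1.00 in edgeR).

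Cdh13 had a CPM of 192.6 and 76.1 against 15.7, 187.7 and 71.3, a log2 fold change of 0.50 ± 1.04 (SE). Cdh11 differed by 0.00 ± 2.13, Cdh2 by 3.04 ± 2.24 and Cdh3 by 1.13 ± 2.09, each with an adjusted p of 1.00 in edgeR. The direction for Cdh2 rested on the Cspg4dsRED sum of bladder_689s, without which the log2 fold change was -3.04. That fit leaves 1 Cspg4dsRED sum, with 2 Cdh2 reads, so its spread comes from the PdgfrbGFP sums alone. None of the 5 members tested was called, as were only 3 of 10790 genes (0.0278%). SEs above 1 mean that differences of several-fold between the lines would not have been seen.

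The comparison in the fibroblast clusters without 5 had smaller errors for Cdh11 and Cdh13. The lines fill these clusters unequally, with 85 of 91 cells of cluster 9 from Cspg4dsRED, 43 of 51 of cluster 11 from Acta2GFP and 84 cells, most of cluster 1, from PdgfrbGFP, so line and cluster are partly mixed in it. Cdh11 had a CPM of 155.7, 232.9 and 216.1 in the 3 sums of PdgfrbGFP and 118.98 to 304.9 in the 5 sums of the other lines, a log2 fold change of -0.12 ± 0.38 (SE). Cdh13 had 99.2 to 274.1 against 100.7 to 306.03, a log2 fold change of -0.03 ± 0.51. In clusters 6, 7 and 8 alone, which all 5 lines share, the log2 fold changes were -0.10 ± 0.40 for Cdh11 and 0.13 ± 0.58 for Cdh13. Cdh2 and Cdh5 differed by 0.68 ± 1.45 and -2.97 ± 2.21. The value of Cdh5 was 0.19 ± 1.80 without the Cspg4dsRED sum of bladder_352s, and -9.88 ± 3.55 without the PdgfrbGFP sum of bladder_881s. In the latter fit both remaining PdgfrbGFP sums held 0 Cdh5 reads, so the size of that value is not read as a fold. All 4 adjusted p were 1.00 in edgeR, and 0 of 15609 genes (0%) passed, with 1.88% at an unadjusted p under 0.05 and 14 genes called by DESeq2's Wald test, none of them a member.

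**Figure D5:**
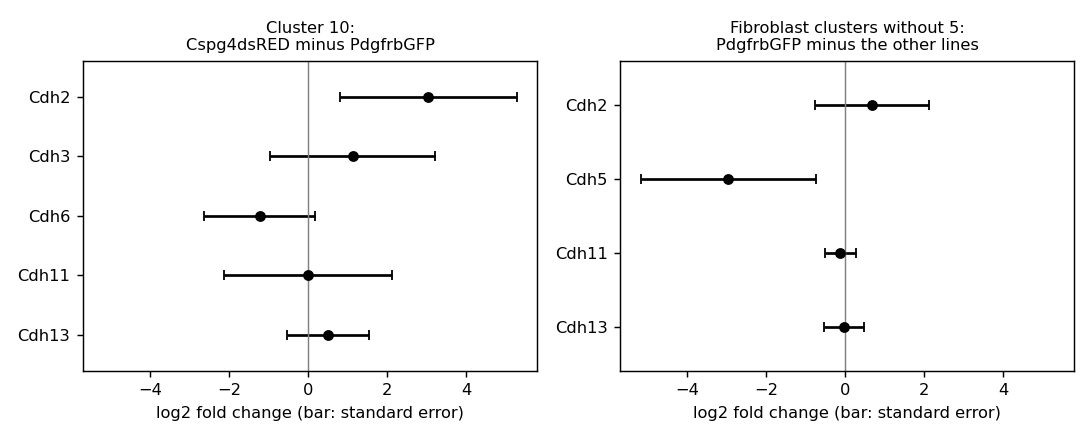
Log2 fold changes of the members between reporter lines, with the standard error of edgeR's quasi-likelihood fit as bars, in cluster 10 (left, Cspg4dsRED minus PdgfrbGFP, 2 and 3 plate sums) and in the fibroblast clusters without 5 (right, PdgfrbGFP minus the other lines, 3 and 5 plate sums). No member passed an adjusted p of 0.05, and the errors for Cdh11 and Cdh13 are smaller on the right (0.38 and 0.51) than on the left (2.13 and 1.04).

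The other type I and type II genes were read in at most 57 cells each, and 2 of them, Cdh8 and Cdh22, in none. Of the type I genes, Cdh4 (R-cadherin) was read in 57 cells and Cdh15 (M-cadherin of muscle) in 1. Of 10 further type II genes, 5 reached 10 reads in the cells compared with cluster 10 and none was called there or in cluster 5. The highest of them was Cdh18, in 33 cells, with a mean level of 10.4 ± 8.66 in cluster 5 and 5.75 ± 9.99 in the other fibroblasts (SD, n = 4 lines).

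The main catenins of the cadherin tail were expressed in both classes. Ctnnb1 (beta-catenin) had 280.9 ± 176.4 in cluster 10 and 157.3 ± 45.1 in the fibroblast clusters, and Ctnna1 (alpha-catenin) 167.9 ± 67.6 and 99.5 ± 17.1 (SD, n = 4 lines), neither called. Vcl, which codes for the actin linker vinculin, was called higher in cluster 5 (277.2 ± 128.04 against 60.8 ± 37.8, where 0.579% of all genes were) but not in cluster 10 (237.6 ± 97.9 against 60.6 ± 34.2), where 1 line differed by 0.51 on the log2 scale. Ctnnd1 (p120-catenin) was not called in either.

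Of the 13 genes in this list, 11 reached 10 reads for cluster 10, and 2 were called higher and 3 lower, where 1.68% and 5.63% of all genes were. Named after their values were seen, the higher ones were Ctnna3, the alpha-T-catenin known from heart muscle (62.03 ± 48.3 against 0.282 ± 0.184), and Arvcf, a p120 relative (48.7 ± 10.7 against 8.24 ± 1.84). The lower ones were Afdn (2.65 ± 2.05 against 27.4 ± 6.54), Nectin1 and Nectin3. The list's median difference was 0.29, beside -0.13 over all genes.

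Of 22 other superfamily genes 18 were counted for cluster 10 and 1 was called, Dchs1, a partner of Fat4 in planar polarity, with 3.23 ± 5.32 against 38.3 ± 9.11. Fat4 was the only one called in cluster 5, higher at 58.1 ± 51.6 against 6.63 ± 3.54. Pcdh18 was called lower in cluster 5, as 2.67% of all genes were, at 19.9 ± 22.5 against 98.6 ± 45.4, as was Pcdh11x, named after its values were seen. Of the desmosomal genes Jup (plakoglobin) was the highest, with 30.2 ± 25.4 in cluster 10 and 97.7 ± 25.99 in the fibroblast clusters, and none of the 7 counted was called.

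The Pcdhg genes, a family of clustered protocadherins, could not be read gene by gene. The 22 Pcdhg genes had between 94248 and 121772 reads each, and 21 of them were within 10% of the median of that family. They share their last exons, so reads there may have been counted for all of them. Of 57 clustered protocadherins 56 were counted and 17 called lower in cluster 10 (5.63% of all genes), every one a Pcdhg gene, which is for this reason not 17 separate observations.

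Among proteins that cut or process cadherins, Psen2, a gamma-secretase subunit gene, was called lower in cluster 10 (4.17 ± 6.07 against 40.3 ± 15.99), and Adam10, the sheddase of N-cadherin and E-cadherin, lower in cluster 5 (7.61 ± 5.80 against 21.01 ± 13.3). Furin was called in neither. Of the 6 transcription factors known to repress Cdh1, Twist2 was called lower in cluster 10 (6.51 ± 4.34 against 39.2 ± 8.36). Zeb2 had 131.1 ± 52.9 against 41.03 ± 15.2, Snai1 had 51.8 ± 78.6 against 48.2 ± 17.8 and Zeb1 had 23.5 ± 14.6 against 42.9 ± 6.94, none of them called.

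Genes with the most similar profile were sought over 43 groups of cluster and line by Pearson's r of log2(level + 1), among 13429 genes with a mean level of at least 1, as a description. For Cdh6 they were E030013I19Rik (r = 0.996), the integrin gene Itga8 (0.99) and Mrgprh (0.99), none of them shared by Spearman's rho. Outside cluster 10 no group exceeded a Cdh6 level of 0.477, so these values rest on the groups of cluster 10. For Cdh13 they were Sfxn1 (0.76), Inpp1 (0.73) and Mtus1 (0.71), and Spearman's rho named the same 3 genes. For Cdh11 they included Sorcs2 (0.79) and Nin (0.79), and Spearman's rho shared Nin.

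Cdh2 was most like Prdm16 (0.72), Fabp5 (0.69) and Itga3 (0.67), and Spearman's rho shared none of the 3. For Cdh1 (St6galnac1, Sectm1b and Olfr365, r = 0.94 each), Cdh3 (Gm43236, Trpc4 and Gm38273, 0.98, 0.96 and 0.96) and Cdh5 (Plch2, 0.95, Itgb7, 0.95, and Lypd2, 0.94) the profile is that of the few cells described above, and Spearman's rho shared none of these genes. The groups share plates and, in part, depth.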

How the data were processed

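The authors sorted single bladder cells, prepared Smart-seq2 libraries and, per their methods, trimmed reads with trim galore, mapped them to GRCm38 with TopHat2 and deposited raw counts per gene and cell made with featureCounts. The strand setting of the counting is not given in the sources used here, so genes on the other strand that overlap Cdh2, Cdh5 or Cdh13 may share reads with them. Samples were grouped by cluster, line and plate from the labels. All columns were used. No doublet caller was run. The 92 ERCC rows were kept out of depth. Symbols and exon lengths came from GENCODE M21, which covered 46005 of 46517 identifiers.

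The members and gene lists were chosen with earlier results of these data known. Levels were reads per 500000, and cells were thinned to 50000 reads (seed 1) for shares, which left out 6 cells. Named relatives were the 4 with the highest mean level in each list, some of which are not reported here, and lines needed 3 cells. Sums per plate and line were tested with edgeR 4.0.16 (TMM, filterByExpr) in R 4.3.3 with Benjamini-Hochberg adjustment; p-values then measure the spread between plates. DESeq2 1.42.0 and limma 3.58.1 were alternatives. The scripts were tested on simulated data.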

Additional observations from a re-analysis of the deposited data

Results flagged for a closer look

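In 8 of 40 sets of 4 or 5 lines (levels of a member by cluster where the highest was at least 1, and differences in clusters 10 and 5), the extreme line lay farther from the others than Dixon's 95% limit allows. That limit is passed in about 1 of 20 sets when values are independent and normal. Levels here hold many zeros and rest on unequal numbers of cells, so no excess is read from the 8. In 3 of the 8 sets the line was C57BL6 in cluster 10, which has 3 cells there: Cdh1 at 17.6 (next line 0.437), Cdh2 at 44.5 (next 7.30) and Cdh3 at 89.9 (next 2.47), each carried by 1 cell. Cdh2 stood apart in cluster 8 for C57BL6 at 12.1 (next 2.80), in cluster 6 for Acta2GFP at 8.84 (next 1.78) and in cluster 1 for PdgfrbGFP at 2.22 (the other lines at 0). Cdh13 stood apart for Acta2GFP in cluster 7 at 545 (next 118.9) and in cluster 3 at 57.5 (next 25.6).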

How the results depend on the processing

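Cdh6 and Cdh11 in cluster 10 and Cdh13 in cluster 5 were called under every alternative tried; without Acta2GFP Cdh3 was called in cluster 10 as well, so that leaving out a line gave 2 to 3 members there and 1 to 1 in cluster 5. In the other fibroblast clusters 5 calls were made, against 3 with a pseudocount of 5, 2 with summed reads, 0 with a 4-fold threshold and 8 with at least 10 cells in both classes, where clusters 1, 9 and 11 were compared in 1 line only; these alternatives were chosen after seeing the data. Between Cspg4dsRED and PdgfrbGFP in cluster 10, DESeq2's Wald test called 1.399% of genes, mostly lower, in place of 0.0278%, sums of at least 10 cells gave 0% and leaving out a sum gave 0% to 0.0324% (0% without PdgfrbGFP on bladder_074s or on bladder_881s). In the fibroblast clusters DESeq2's Wald test called 0.0897% of genes in place of 0%, and leaving out a sum gave 0% to 0%. With plate as a block, chosen after seeing the data, 0% were called and Cdh11 had a log2 fold change of 0.72 ± 1.08 (SE) in place of -0.12 and Cdh13 -0.18 ± 1.09 in place of -0.03, where the lines were compared on bladder_515s alone. In cluster 10 no plate held both lines in the test. No member was among the genes called. The causes were not tested. Over the 77 levels by cluster, 22 alternative values moved by more than 1 SD over lines. No paired analysis was possible by replicate number because these numbers were given to cells in accession order and pair no samples. The labels name no animal, and the values of clusters 4 and 9 rest on 2 lines.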

Other observations

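The 3 genes called between Cspg4dsRED and PdgfrbGFP mural cells, named after their values were seen, were Odf3l1, Snx33 and Imp3, all higher in Cspg4dsRED in edgeR's quasi-likelihood test (adjusted p = 0.0016, 0.028 and 0.0013). No gene was called without the PdgfrbGFP sum of bladder_074s, which holds 4 cells, or without that of bladder_881s. They lie on chromosome 9 at 0.354, 17.3 and 37.6 kb from Cspg4, the gene whose promoter drives the reporter of that line. Odf3l1 had a level of 123.6 in Cspg4dsRED and 0 in PdgfrbGFP cells of cluster 10, and in the fibroblast clusters 0.452 in Cspg4dsRED against 0 to 0.127 in the other 4 lines. Imp3 had 560 and 44.8, and in the fibroblast clusters 481 in Cspg4dsRED against 17.9 to 56.1 in the other 4 lines. Snx33 had 343.02 and 39.2 in cluster 10, and 275.4 against 30.7 to 44.4 in the fibroblast clusters.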
